A study of Arabidopsis thaliana with 29 samples.

Results

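The light-harvesting complex I genes LHCA1 to LHCA6 were examined as 6 rows of a count table of 59999 Arabidopsis thaliana loci, chosen by their locus identifiers, and all 6 passed the filter on low counts. The RNA came from whole 7-day-old seedlings on medium with sucrose, grown with a daily cycle of 16 h white light and 8 h darkness. The group called fusca here is the line 2x35S::GFP-HY5/hy5 in seedlings that show the fusca phenotype, a name for dark-pigmented seedlings of constitutively photomorphogenic mutants, and it has 3 libraries. The group called GFP-HY5 is the same line with no such phenotype recorded. WT seedlings have 3 libraries. In fusca and GFP-HY5 alike, a 35S promoter construct, which is active in most plant tissues, drives HY5 fused to green fluorescent protein in a hy5 mutant, and RNA of the hy5 mutant alone was not analysed here. The 3 columns of GFP-HY5 held the same value in every row and were counted as 1 library, so both comparisons with GFP-HY5 describe that library and have no test.

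Photosystem I drives electrons from plastocyanin to ferredoxin, and its light is gathered in part by a belt of chlorophyll-binding LHCA proteins on one side of the core. LHCA1 pairs with LHCA4 and LHCA2 pairs with LHCA3 in that belt. LHCA3 and LHCA4 hold the long-wavelength, or red, chlorophylls of the complex. LHCA5 and LHCA6 occur in smaller amounts and link photosystem I to the chloroplast NADH dehydrogenase-like (NDH) complex, which takes part in cyclic electron flow. All 6 proteins are made from nuclear genes and are imported into the chloroplast, and LHC genes of this kind are classical light-induced genes of the seedling. HY5 is a bZIP transcription factor that promotes light-dependent development.

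Levels are CPM, read counts brought to one common depth with TMM factors, which correct each library for its composition. The libraries held 11860094 to 12545563 counts over loci. HY5 itself stood at 129, 186 and 130 CPM in fusca, at 77.3 CPM in GFP-HY5 and at 14.1, 16.1 and 12.1 CPM in WT. The labels do not state that the 3 samples of a group came from separate cultures, so p-values measure the spread between these samples only. Markers of other seedling parts differed between the libraries. The 9 seed storage markers summed to 33, 2828 and 31 counts in fusca replicates 1, 2 and 3, to 10 counts in GFP-HY5 and to 19, 52 and 19 counts in WT, and CRB was at 0 in every library but fusca replicate 2. CRA1, a cruciferin and the only one of the 9 to pass the filter on low counts, had a log2 fold change of 3.44 in fusca against WT and did not pass the threshold (edgeR adjusted p = 0.11). The 6 root markers held 0.687% to 1.398% of the counts in fusca, 0.275% in GFP-HY5 and 0.307% to 0.327% in WT, mostly from PYK10, a beta-glucosidase of root endoplasmic reticulum bodies. Of these 6, PYK10, CASP1 and PER64 were higher and COBL9, EXPA7 and PRP3 lower in fusca (edgeR, all past an adjusted p of 0.05), and none was at 0 in any library. Of all tested loci, 35.1% passed in either direction. The part of this tissue content in the LHCA values was not tested.

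All 6 LHCA genes were lower in fusca than in WT, 5 of them to between 3.01% and 5.73% of the WT level and LHCA5 to 19.5%. Together they took 0.0295 ± 0.0112% of the counts in fusca (SD, n = 3), 0.542% in GFP-HY5 (Wilson 95% interval 0.538 to 0.546%, counting error only) and 0.498 ± 0.0542% in WT (SD, n = 3). All 6 passed the threshold in the lower direction, where 18.4% of the 21820 tested loci did so (35.1% in either direction; edgeR quasi-likelihood test with Benjamini-Hochberg adjustment over all tested loci at 0.05). For each of the 6 the highest fusca library lay below the lowest WT library, which held for 24.4% of tested loci; groups apart in either direction were found at 49.8%. The median log2 fold change of the members was -4.64, against 0.05 over all tested loci. In bulk seedlings, fewer cells of a type and less RNA per cell cannot be told apart.

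LHCA1 (AT3G54890), the partner of LHCA4 in the belt, stood at 28.9, 34.7 and 28.9 CPM in fusca replicates 1, 2 and 3, at 1004 CPM in GFP-HY5 and at 691, 748 and 933 CPM in WT. The fusca libraries lay close together and far under WT, while the GFP-HY5 library was above every WT library. The mean was 30.8 ± 3.34 CPM in fusca and 791 ± 127 CPM in WT (SD, n = 3 each). Relative to WT this was a log2 fold change of -4.68 (standard error 0.21, edgeR adjusted p = 6.8e-07), 25.7-fold lower in fusca.

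LHCA4 (AT3G47470), the red-chlorophyll partner of LHCA1, had 26.5, 48.6 and 24.3 CPM in fusca, 766 CPM in GFP-HY5 and 489, 566 and 681 CPM in WT. Again the GFP-HY5 library was above all WT libraries and the fusca libraries were below them. The change was smaller than that of LHCA1, with 33.1 ± 13.4 CPM in fusca and 578 ± 96.7 CPM in WT (SD, n = 3 each) and a log2 fold change of -4.13 (standard error 0.30, edgeR adjusted p = 8.1e-06), 17.5-fold lower in fusca. In the RefSeq gene table the LHCA4 locus overlaps its neighbour ATSMC2 (AT3G47460) by position, so reads of the overlap are uncertain. Strands were not compared. ATSMC2 stood at 12.3 CPM on average in fusca and 15.5 CPM in WT, and its part in the LHCA4 counts was not tested.

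LHCA2 (AT3G61470), which pairs with LHCA3, had 55.1, 129 and 59.7 CPM in fusca, 2146 CPM in GFP-HY5 and 2157, 2138 and 2670.4 CPM in WT. Fusca replicate 2 stood well above the other fusca libraries, and GFP-HY5 was within the WT range. LHCA2 averaged 81.3 ± 41.4 CPM in fusca and 2322 ± 302 CPM in WT (SD, n = 3 each), a log2 fold change of -4.84 (standard error 0.37, edgeR adjusted p = 1.1e-05) and 28.6-fold lower in fusca.

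LHCA3 (AT1G61520), the red-chlorophyll partner of LHCA2, had 48.1, 118 and 46.5 CPM in fusca, 1766 CPM in GFP-HY5 and 1574, 1552 and 2035 CPM in WT. As for LHCA2, fusca replicate 2 was the highest fusca library and GFP-HY5 lay within the WT range. It averaged 70.8 ± 40.7 CPM in fusca and 1720.2 ± 273 CPM in WT (SD, n = 3 each). It was 24.3-fold lower in fusca, a log2 fold change of -4.60 (standard error 0.40, edgeR adjusted p = 2.2e-05).

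LHCA5 (AT1G45474), a linker of photosystem I and the NDH complex, had 25.7, 47.3 and 24.1 CPM in fusca, 129 CPM in GFP-HY5 and 155, 162 and 181 CPM in WT. Its groups did not overlap either, but its change was the smallest among the 6, with 32.4 ± 13.0 CPM in fusca and 166 ± 13.4 CPM in WT (SD, n = 3 each). It was 5.14-fold lower in fusca, a log2 fold change of -2.36 (standard error 0.26, edgeR adjusted p = 8.8e-05). The locus overlaps AT1G45545 by position in the RefSeq gene table (strands not compared), so reads of the overlap are uncertain. That neighbour had 4.34 CPM on average in fusca and 11.8 CPM in WT.

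LHCA6 (AT1G19150), the other linker, had 3.84, 6.53 and 4.35 CPM in fusca, 135 CPM in GFP-HY5 and 154, 151 and 184 CPM in WT. These fusca levels rest on 57, 90 and 65 counts, the fewest among the members. LHCA6 averaged 4.91 ± 1.43 CPM in fusca and 163 ± 18.5 CPM in WT (SD, n = 3 each), and its log2 fold change of -5.05 (standard error 0.23, edgeR adjusted p = 7.3e-07), 33.2-fold lower in fusca, was the largest among the 6 with all libraries in the fit. Without fusca replicate 2 that place went to LHCA2, with -5.34 against -5.31 for LHCA6, while LHCA5 had the smallest change in both fits.

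**Figure D1:**
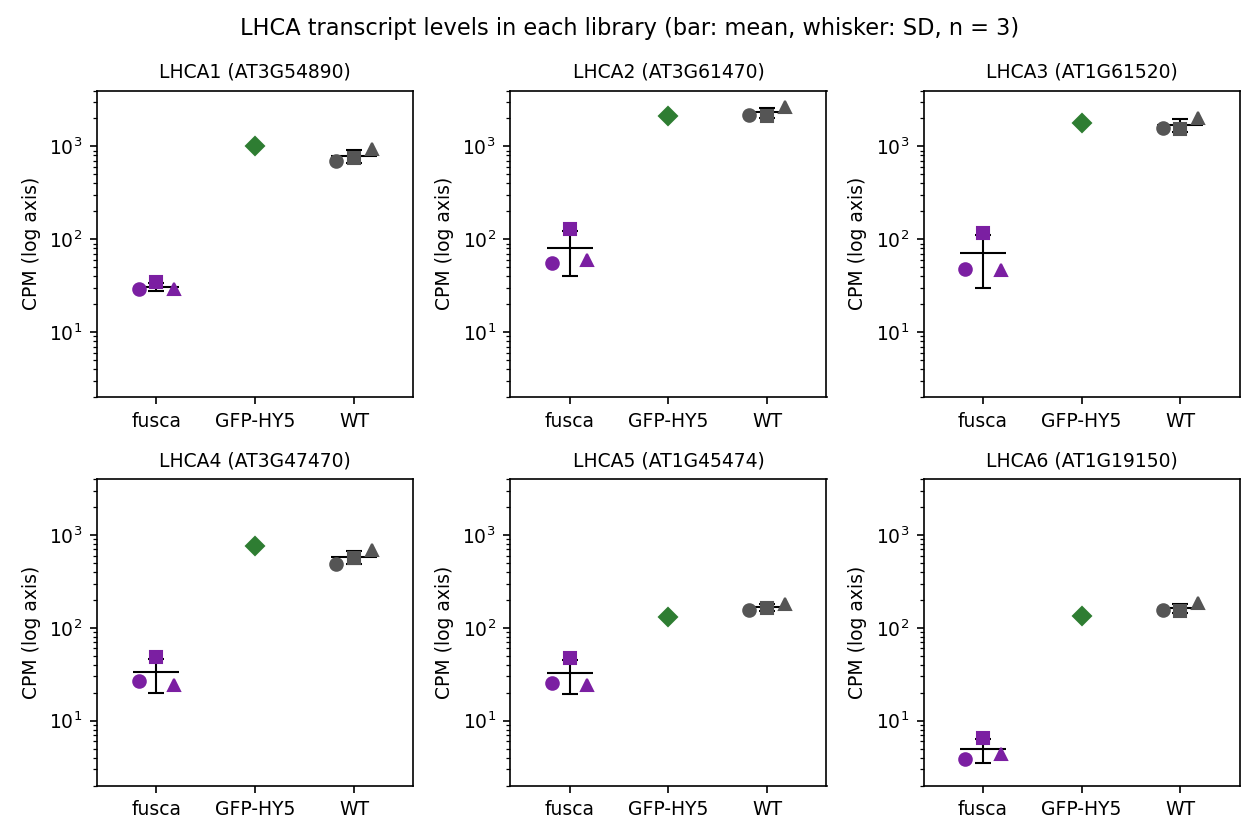
CPM on a log axis for each LHCA gene in fusca (3 libraries), GFP-HY5 (1 library) and WT (3 libraries); circles, squares and triangles are replicates 1, 2 and 3, the diamond is GFP-HY5, bars are means and whiskers SDs. In all 6 panels the fusca libraries lie below all WT libraries, with LHCA5 showing the narrowest gap.

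Whether 2 members changed by different amounts was examined through the ratio of their CPM within each library, which does not depend on the scaling. All 15 pairs were compared with a two-sided exact permutation test of the log2 ratio in 3 fusca against 3 WT libraries, which cannot give a p below 0.10. No pair could therefore pass 0.05, and the smallest p adjusted over the 15 pairs was 0.136. The ratios did not overlap between fusca and WT in 11 of the 15 pairs, 5 of 5 with LHCA5 and 6 of 10 without it. The pairs share 6 genes and are not independent. Single loci had groups apart in either direction at 49.8%, and the share for pairs of other genes was not computed.

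In order of change with all libraries the members ran LHCA6, LHCA2, LHCA1, LHCA3, LHCA4 and LHCA5. Neighbours in the first part of that order had overlapping ratios. The LHCA2/LHCA6 ratio changed by 0.14 on the log2 scale (exact p = 0.80), LHCA1/LHCA2 by 0.27 (exact p = 0.40) and LHCA1/LHCA3 by 0.06 (exact p = 1). These 3 pairs are not shown to differ, nor to have changed alike.

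The later neighbours had ratios that did not overlap. LHCA3/LHCA4 was 1.81 to 2.42 in fusca and 2.74 to 3.22 in WT, a log2 change of -0.55 (exact p = 0.10). LHCA4/LHCA5 was 1.01 to 1.03 in fusca, nearly the same in the 3 libraries, and 3.15 to 3.76 in WT, a log2 change of -1.76 (exact p = 0.10). Within the belt pairs, the log2 ratio LHCA1/LHCA4 changed by -0.49 and LHCA2/LHCA3 by -0.21 (exact p = 0.10 each).

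The linkers moved apart. LHCA5/LHCA6 was 5.55 to 7.24 in fusca, 0.956 in GFP-HY5 and 0.983 to 1.08 in WT, a log2 change of 2.66 (exact p = 0.10, the smallest this design allows). This was the largest change among the 15 pairs, but without fusca replicate 2 LHCA2/LHCA5 changed by -2.60 and LHCA5/LHCA6 by 2.58. LHCA6 held its ratio to LHCA2 more closely, and LHCA2/LHCA6 was 13.7 to 19.8 in fusca, 15.9 in GFP-HY5 and 14.0 to 14.5 in WT, with overlapping groups. These ratios are of counts and are not adjusted for transcript length, so they compare libraries and do not rank the genes by abundance.

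The make-up of the LHCA counts showed the same shift. LHCA5 supplied 13.6%, 12.3% and 12.9% of the counts of the 6 genes in fusca replicates 1, 2 and 3, 2.18% in GFP-HY5 and 2.97%, 3.06% and 2.71% in WT. LHCA2 supplied 29.3%, 33.6% and 31.8% in fusca, 36.1% in GFP-HY5 and 41.3%, 40.2% and 39.9% in WT. LHCA6 supplied 1.70% to 2.31% in fusca, 2.28% in GFP-HY5 and 2.75% to 2.95% in WT.

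**Figure D2:**
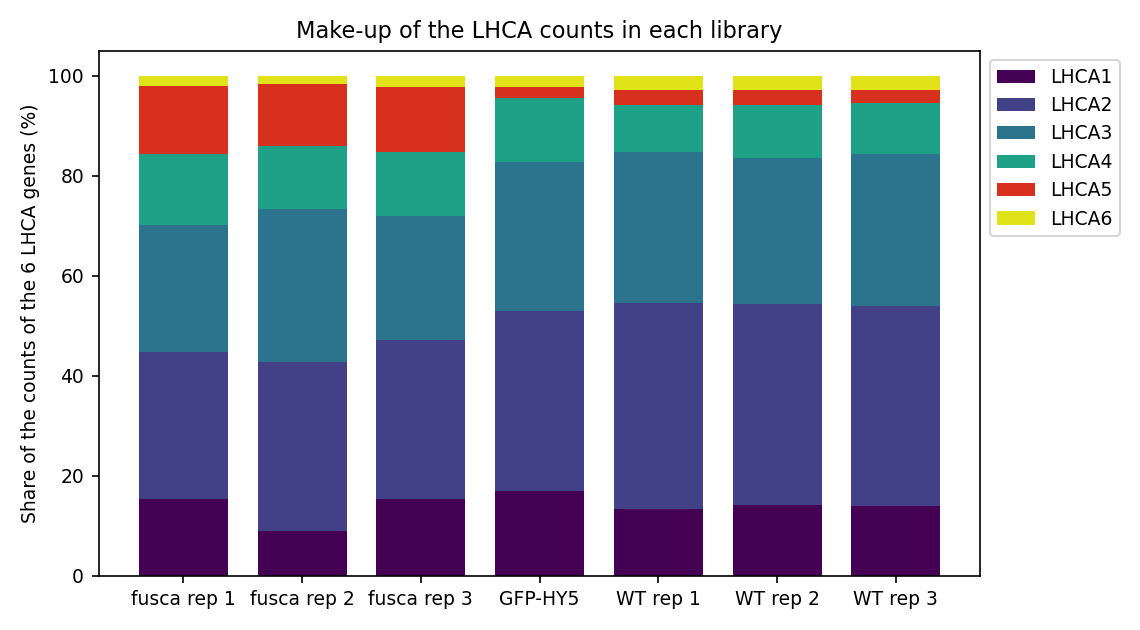
Stacked bars of the percent of LHCA counts from each of the 6 genes, one bar per library, with fusca, GFP-HY5 and WT from left to right. The LHCA5 segment takes 12.3% to 13.6% in the fusca libraries and 2.71% to 3.06% in the WT libraries.

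Within fusca the libraries were less alike for some members than for others. Fusca replicate 2 stood above the mean of replicates 1 and 3 by 2.49 times for LHCA3, 2.25 times for LHCA2, 1.91 times for LHCA4, 1.90 times for LHCA5 and 1.60 times for LHCA6, and by the least for LHCA1, with 34.7 CPM in replicate 2 against 28.9 CPM in each of the others. Over all tested loci the median of this ratio was 1.04, and 16.6% of loci were above 1.5. The median of the 6 members was 1.91, against 2.33 for the antenna genes of photosystem II (LHCB) and 1.73 for electron carriers. For the photosystem I core it was 1.60 in nuclear genes and 2.83 in chloroplast loci. These lists were thus also raised in replicate 2. The rise was smaller for NDH genes (1.29) and for genes that deliver LHC proteins or assemble photosystem I (1.17). The coefficient of variation was 10.8% for LHCA1 in fusca and 29.1% to 57.5% for the other members, against 8.04% to 16.7% for the 6 in WT. Replicate 2 was also the fusca library with 2828 seed storage counts and with the highest HY5 level; the part of these in its LHCA levels was not tested. Without it, all 6 members still passed the threshold, with log2 fold changes of -2.74 for LHCA5 and -5.34 for LHCA2. In WT, replicate 3 was the highest library for each of the 6 genes, at most 1.39 times the lowest.

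Partner genes of the antenna were lower in fusca as well. All 12 nuclear genes of photosystem I core subunits fell, with a median log2 fold change of -5.20 and a range of -5.50 to -4.37 (edgeR adjusted p below 0.05 for each, where 18.4% of tested loci passed in that direction). PSAL, near the docking site of LHCII during state transitions, changed by -5.50, PSAK, a small subunit on the antenna side of the core next to LHCA3, by -5.42, and PSAH2, a neighbour of PSAL, by -5.38. The range of the core genes held the changes of LHCA1, LHCA2, LHCA3 and LHCA6, but not those of LHCA4 and LHCA5. The 5 chloroplast loci listed with the core carry no gene names in the RefSeq gene table and are given by identifier. Of these ATCG00630 (-1.59) and ATCG00340 (-1.28) passed and were lower. ATCG00350 had a log2 fold change of -0.41, ATCG00510 of -0.05 and ATCG01060 of 0.44, and these 3 did not pass. Poly(A) RNA was sequenced, in which most chloroplast transcripts are poorly represented.

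The antenna of photosystem II fell over a wider range. All 15 LHCB genes passed and were lower, where 18.4% of tested loci did so. Their median log2 fold change was -4.88, with a range of -8.83 to -1.24. The lowest, for LHCB2.3, rests on 2 fusca counts in all. LHCB2.3 and LHCB2.2, which encode trimeric LHCII proteins, were nearly undetected in fusca, with 0, 2 and 0 counts for LHCB2.3 and 1, 4 and 1 counts for LHCB2.2, against 232 to 314 and 226 to 297 counts in the WT libraries. LHCB1.2 stood at 13.6 ± 9.998 CPM in fusca and 2089 ± 323 CPM in WT (SD, n = 3 each), a log2 fold change of -7.27. Genes of the LHCB1 and LHCB2 subfamilies have nearly the same sequence, and how reads were split among them is uncertain.

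The NDH complex, which LHCA5 and LHCA6 tie to photosystem I, was lower in all 17 of the nuclear genes listed for it. Each passed the threshold in that direction, where 18.4% of tested loci did so. The median log2 fold change was -4.31, with a range of -7.70 to -1.49. PNSL3, a subunit on the lumen side, changed by -7.70, NDHU by -7.38 and NDHM by -6.03, both subunits of the stroma-facing part. LHCA6 with -5.05 lay below the median of this list, and LHCA5 with -2.36 above it, near the smallest changes.

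Carriers next to photosystem I were lower too. All 9 listed donors, acceptors and cyclic-flow proteins passed in that direction, where 18.4% of tested loci did so. The median log2 fold change was -3.59, with a range of -7.66 to -0.77. PETE1, a plastocyanin, changed by -7.66, LFNR2, a ferredoxin-NADP+ reductase, by -4.94 and PETE2, the other plastocyanin, by -4.06. The smallest change, of -0.77, was that of PGRL1B, a cyclic electron flow protein. With library size as the only scale, or without any single WT library, 8 of the 9 passed.

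The proteins that deliver LHC proteins to the thylakoid or assemble photosystem I had smaller changes. All 9 passed and were lower, where 18.4% of tested loci did so. The median log2 fold change was -2.12, with a range of -2.88 to -1.27. PPD1, an assembly factor, changed by -2.88, Y3IP1 (CEST in RefSeq), also an assembly factor, by -2.16, and PSA2, a thylakoid-lumen assembly factor, by -2.14. CAO, which encodes the cpSRP43 chaperone of LHC proteins, had 45.3 CPM on average in fusca and 198 CPM in WT. Of the 6 members, LHCA5 alone had a change within the range of this list.

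**Figure D3:**
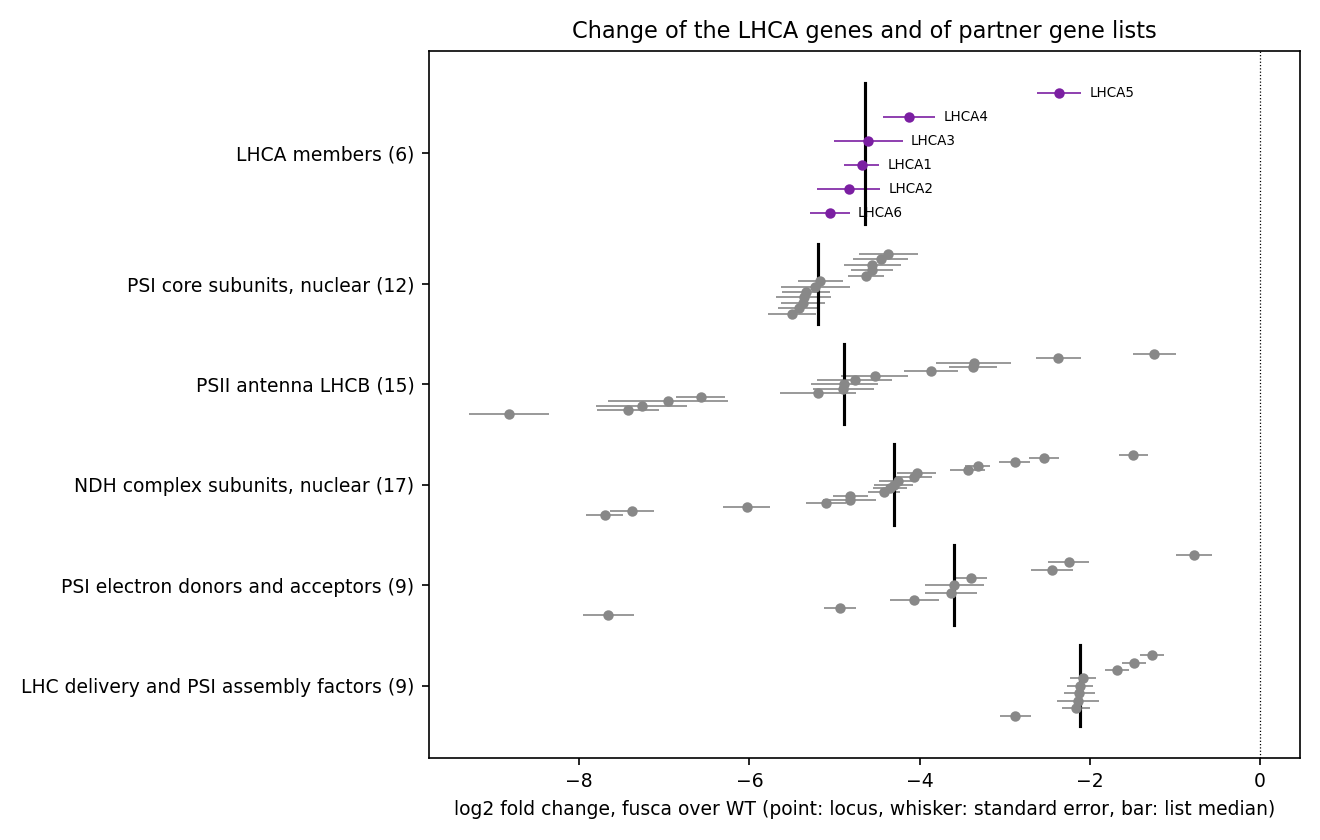
Log2 fold change of fusca over WT for each LHCA gene and for the genes of 5 partner lists, with standard errors as whiskers and the list median as a black bar. Every point drawn lies below 0, and LHCA5, at -2.36, lies nearest to 0 among the LHCA genes. The 5 chloroplast core loci, with log2 fold changes of -1.59 to 0.44, are not drawn.

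Apart from the members themselves, the loci whose profile over the 7 libraries was most like that of each member were found by the root mean square difference of centred log2 CPM, a description in which the large gap between fusca and the rest weighs most. For LHCA5 the nearest was PGR5, a protein of cyclic electron flow around photosystem I, at 0.048 log2 units. PGR5 had a log2 fold change of -2.45 in fusca against WT, near the -2.36 of LHCA5, and a log2 difference of -0.38 in GFP-HY5 against WT, near the -0.36 of LHCA5. Because PGR5 was picked for its likeness over these same libraries, both matches follow from the choice and are no separate result. The next for LHCA5 were PRPS20, a plastid ribosomal protein (0.069), and AT3G08920 (0.088).

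For LHCA6 the nearest was PNSB3, an NDH subunit, at 0.059 log2 units, followed by FLA13, a fasciclin-like protein (0.089), and PTAC16, found with plastid chromosomes (0.096). For LHCA2 they were ROPGEF13 (0.10), which overlaps PSAH1, LHCB5 (0.11) and NDHN (0.12). For LHCA3 they were PSAF (0.13), LHCB1.3 (0.13) and LHCB5 (0.14), and for LHCA1 PSAD1 (0.13), CSLB03 (0.15) and CORI3 (0.16). LHCA4 had no locus as near, with NDHO at 0.20, PSAE2 at 0.22 and PSBO2 at 0.23. In the RefSeq gene table ROPGEF13, NDHN, LHCB1.3, PSAE2, PRPS20, AT3G08920 and PNSB3 overlap another locus by position (strands not compared), so their counts are uncertain. Among the members themselves LHCA2 and LHCA3 were nearest (0.12), closer than LHCA3 and PSAF, while LHCA5 was 1.00 to 1.31 from each of the others.

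Each tested gene next to a member along the chromosome had a smaller change than that member. Of the 12 adjacent loci of the RefSeq gene table, 7 were tested, of which 2 were lower, 1 was higher and 4 did not pass, with log2 fold changes of -1.98 to 1.64. With 35.1% of all tested loci called in either direction, so small a number of neighbours is not set apart by these calls. CXIP1, a glutaredoxin gene beside LHCA1, changed by -1.98, and BRH1, a RING finger gene beside LHCA2, by 1.64. These loci were chosen by position.

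In the GFP-HY5 library the LHCA genes were near WT levels. On the log2 scale the difference from WT was 0.36 for LHCA1 and 0.42 for LHCA4, both above all 3 WT libraries. It was -0.36 for LHCA5 and -0.26 for LHCA6, both below all 3 WT libraries. LHCA2 with -0.11 and LHCA3 with 0.05 lay within the WT range. A library outside the WT range is common: this held for 58.3% of all tested loci (29.5% above, 28.8% below), so 4 of 6 members is close to the background. None differed by 2-fold, which 3.07% of tested loci did. The belt pair LHCA1 and LHCA4 thus lay on one side of WT and the linkers on the other, a difference without a replicate check.

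**Figure D4:**
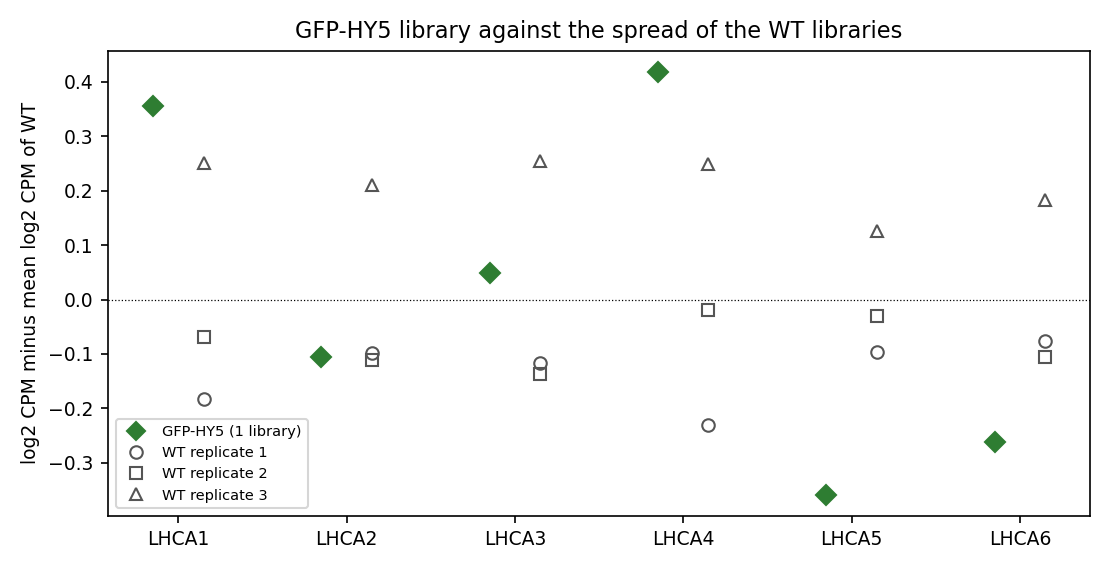
Log2 CPM of the GFP-HY5 library (diamond) and of the 3 WT libraries (open symbols) relative to the WT mean for each LHCA gene. GFP-HY5 lies above all WT libraries for LHCA1 and LHCA4, below them for LHCA5 and LHCA6 and among them for LHCA2 and LHCA3.

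The ratios between members in GFP-HY5 fell outside the WT range in all 15 pairs, which share 6 genes and are not independent. Single loci did so at 58.3%. The share for pairs of other genes was not computed, so the count is not shown to be particular to the members. LHCA1/LHCA5 was 7.76 in GFP-HY5 and 4.46 to 5.16 in WT, and LHCA4/LHCA6 was 5.66 in GFP-HY5 and 3.18 to 3.75 in WT. Of the partner lists in GFP-HY5, 12 of the 17 NDH genes, 7 of the 9 delivery and assembly genes and 6 of the 9 electron carriers were below all WT libraries and none was above, with median log2 differences of -0.20, -0.15 and -0.27. Of the 5 chloroplast core loci, 4 were below and none above, with a median of -0.69. The nuclear core list had 3 genes below and 1 above (median -0.09), and the LHCB list 2 below and 5 above (median 0.01), where 28.8% of all tested loci were below and 29.5% above.

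Fusca seedlings set against the GFP-HY5 library of the same line gave differences close in size to those against WT, in a comparison that shares the fusca libraries. The log2 difference was -5.02 for LHCA1, -4.83 for LHCA2, -4.78 for LHCA3, -4.60 for LHCA4, -2.06 for LHCA5 and -4.78 for LHCA6. For each of the 6 all fusca libraries lay below the GFP-HY5 library, as at 32.2% of tested loci. The comparison has no replicate check in GFP-HY5.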

How the data were processed

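The members and gene lists were chosen with earlier results of these data known. The single table deposited by the authors holds raw sense-strand counts for each locus, per the file headers. The submitters' processing notes name Trim Galore, STAR, HTSeq and deepTools and the build TAIR10; versions, annotation and the treatment of multiply mapped reads are not given in the sources used here. The 5 summary rows stayed out. Reads that matched no feature were 48.4% to 48.9% and ambiguous reads 0.572% to 0.798% of each column. ChIP-seq samples were not analysed here.

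Loci were kept by filterByExpr on WT and fusca, which left 21820. The 7 distinct libraries were fitted with edgeR 4.0.16 (TMM, estimateDisp, glmQLFit, glmQLFTest) in R 4.3.3, with Benjamini-Hochberg adjustment over all tested loci at 0.05. The standard error is the log2 fold change divided by the root of F. Differences with GFP-HY5 are in log2 CPM, computed with 2 as the prior count. TMM factors were 1.11 to 1.26 in fusca, 0.911 in GFP-HY5 and 0.839 to 0.889 in WT. The fit was also run on simulated data with 200 changed loci, and the outcome of that run is not given here. The text names all 6 members, the 3 largest changes past the threshold in each pathway list with any gene that moved the other way or did not pass, the 3 nearest profiles per member and HY5; other genes named were chosen after seeing their values. Gene symbols are those of the RefSeq table of TAIR10.1 or, for some listed genes, common names that differ from it (LHCB1.2 is CAB3 there). That table was used for names and neighbours only and matched 20233 of the tested loci. Alternatives were other scalings, DESeq2 1.42.0, other filters, other sets of libraries, a replicate block and each library left out.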

Additional observations from a re-analysis of the deposited data

Results flagged for a closer look

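LHCA1 and LHCA4 drew attention because the transgenic line lay on opposite sides of WT with and without the fusca phenotype. For LHCA1 all 3 fusca libraries were below, and the GFP-HY5 library was above, all 3 WT libraries, with a GFP-HY5 difference of 0.36 on the log2 scale. For LHCA4 the GFP-HY5 difference was 0.42. The GFP-HY5 library was above all WT libraries at 29.5% of tested loci, so that side of the pattern is common. The share of loci with both sides of the pattern was not computed. The difference between the groups was not tested, since GFP-HY5 is 1 library.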

How the results depend on the processing

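All 90 fold changes of the members in fusca against WT under the alternatives (15 settings for each of 6 genes) kept their direction and stayed past the threshold, and the member count was 6 in each. The smallest log2 fold change of LHCA5 was -1.93, with library size only. Under that scaling the median of all tested loci was 0.50, against 0.05 with TMM factors, and 10174 loci were called higher and 2588 lower (79.7% higher), against 3639 and 4012 (47.6% higher), and upper-quartile factors gave a median of 0.20 with 61.1% higher. LHCA1 in fusca against GFP-HY5 was -4.65 with library size only and -4.87 with upper-quartile factors. The LHCA share in GFP-HY5 was 0.563% of nuclear counts and 0.595% of the scaled library size, and in WT 0.574% of the scaled size.

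Of the chloroplast loci, 1 was higher with library size only, where their median turned to 0.0089, and 1 to 4 were lower when single libraries were left out; the cause was not tested. With single libraries left out the LHCA1/LHCA3 change ranged from -0.13 (without fusca replicate 3) to 0.41, with -0.10 without fusca replicate 1, and LHCA2/LHCA6 from -0.020 (without fusca replicate 2) to 0.24. Same-numbered WT and fusca libraries did not deviate together (correlations of -0.045, -0.11 and -0.20). Such correlations, from 3 libraries per group, cannot show whether same-numbered samples were handled together. With the replicate block 3246 loci were higher and 3528 lower. The list alternatives other than RLE factors and library size only, and the leave-out values of the pair ratios, were chosen after seeing the data.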
